A study of Homo sapiens with 6 samples.

Results

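The genes described here encode the chromatin remodelers, the enzymes that add methyl groups to lysine and arginine or take them off lysine, and the reader proteins that dock on modified histones. They were chosen by symbol: names starting with KDM, KMT, SETD, PRMT, EHMT, SUV39, SUV420, EZH, PHF, BRD, ARID, SMARC, CHD or ING, with at least 60 reads summed over the 6 libraries, BRD8 and ING3 left out by the rule. This gave 110 of the 24462 gene symbols in the tables, of which 106 name protein genes and 4 name antisense RNAs (KDM4A-AS1, KMT2E-AS1, PRMT5-AS1 and SMARCA5-AS1). Another 10 symbols matched the names but had fewer than 60 reads, 7 of them none. The members with the fewest reads were SETD9 (74), CHD5 (75) and SMARCA5-AS1 (129), and just outside the limit were KDM4D (46), BRD7P3 (8) and SMARCA1 (3).

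RNA was sequenced from LS 174T, a human colorectal adenocarcinoma cell line (passages 21 to 23) with goblet cell features such as mucin production. One group of 3 libraries came from cells without treatment (control) and the other, also of 3, from cells given propionate at 4 mM for 4 h. Propionate is one of the short fatty acids released when gut bacteria ferment fiber. The subject of the series, by its title, is how propionate raises MUC2, with mitochondrial metabolism and HIF-2α named. Whether the replicates were grown as separate cultures is not in the labels, so each p-value reflects only how far these libraries scatter, and that scatter may be technical.

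Chromatin remodelers use ATP to slide, evict or exchange nucleosomes. They fall into the SWI/SNF (BAF and PBAF), ISWI, CHD and INO80 families. Histone methyltransferases place marks with different associations: methylation of histone H3 at lysine 4 (H3K4) marks promoters and enhancers, H3K36 marks transcribed gene bodies, and H3K9, H3K27 and H4K20 methylation mark silent or compact chromatin. Demethylases of the KDM family erase these marks, and proteins with bromodomains or PHD fingers bind acetylated or methylated histone tails. Propionate itself is known as a weak inhibitor of histone deacetylases.

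Libraries held from 11603288 to 12746170 reads, and all 110 members had enough reads to be tested, among 13605 genes in all. Levels are given as CPM, in which each library is scaled to 1000000 reads with TMM factors, and a count of 3 reads corresponds to between 0.235 and 0.259 CPM before that scaling. Members took between 0.781% and 0.872% of the reads of a library. Of 8 epithelial and goblet cell markers, 7 averaged above 60 CPM in both groups (EPCAM, CDX2, VIL1, MUC2, MUC5AC, TFF3 and CEACAM5), while KRT20 was at 1.26 CPM in control. Of these, CDX2 was called lower and MUC2 and CEACAM5 higher. Of the 7 markers of other cell types, CD3E had no read, PTPRC, PECAM1 and DES were at 0 in at least one group, and COL3A1 and ACTA2 did not pass the test or were too low for it. COL1A1 rose from 0.886 to 3.68 CPM (adjusted p = 0.000219). Summed over these 7 markers the level was between 5.17 and 6.91 CPM in the controls and between 7.14 and 10.7 CPM with propionate, and its part in the results below was not tested.

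More of these genes fell with propionate than rose. At a Benjamini-Hochberg adjusted p under 0.05 (edgeR quasi-likelihood test over all tested genes), 37 of the 110 members (33.6%) were lower, where 17.0% of all tested genes were lower. Another 15 members (13.6%) were higher, where 17.2% of all tested genes were higher. In all 52 members were called in either direction, where 34.2% of all tested genes were, and the remaining 58 were not called. The median log2 fold change was -0.12 for the members and -0.01 for all tested genes, and 75 members (68.2%) had a value below 0 against 50.8% of all tested genes. Since RNA was measured in bulk, less RNA per cell and fewer cells carrying it cannot be told apart.

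The members had more reads than most genes, with a median of 3403 over the 6 libraries against 1666 for all tested genes, and changes are called more easily in such genes. Among the 88 members with at least 1000 reads, 30 (34.1%) were lower and 14 (15.9%) higher, and among the 8391 tested genes with that many reads 21.2% were lower and 17.3% higher. In 42 members all propionate libraries lay below all controls, where this held for 22.7% of tested genes, and in 16 they lay above, where it held for 22.4% (either direction 45.2%). At least 2-fold falls numbered 8 among the members (1.98% of all tested genes) and at least 2-fold rises numbered 2 (5.01% of all tested genes). With a trend for transcript GC content removed from each library, the median of the members was -0.20 and that of all tested genes -0.04, with 40 members lower and 14 higher (19.7% and 14.5% of all tested genes).

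**Figure D1:**
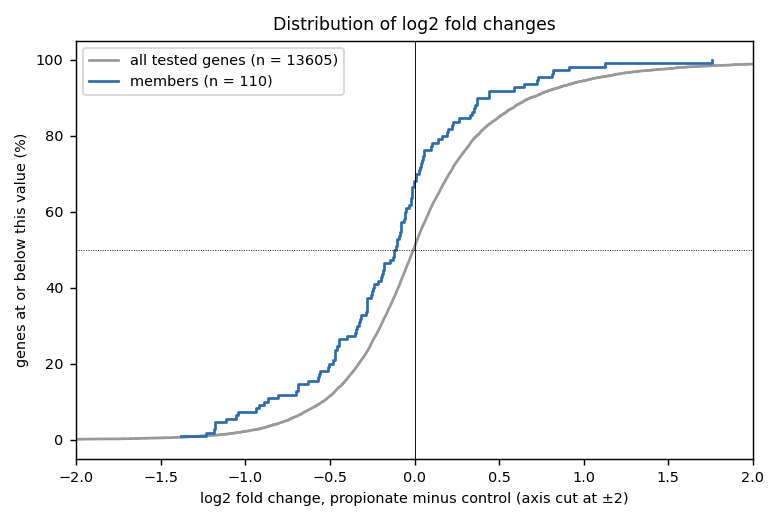
Cumulative share of genes (y axis, percent) at or below each log2 fold change of propionate over control (x axis), for the 110 members and for the 13605 tested genes. The curve of the members lies to the left, crossing the dotted 50% line at -0.12 where all tested genes cross it at -0.01.

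**Figure D2:**
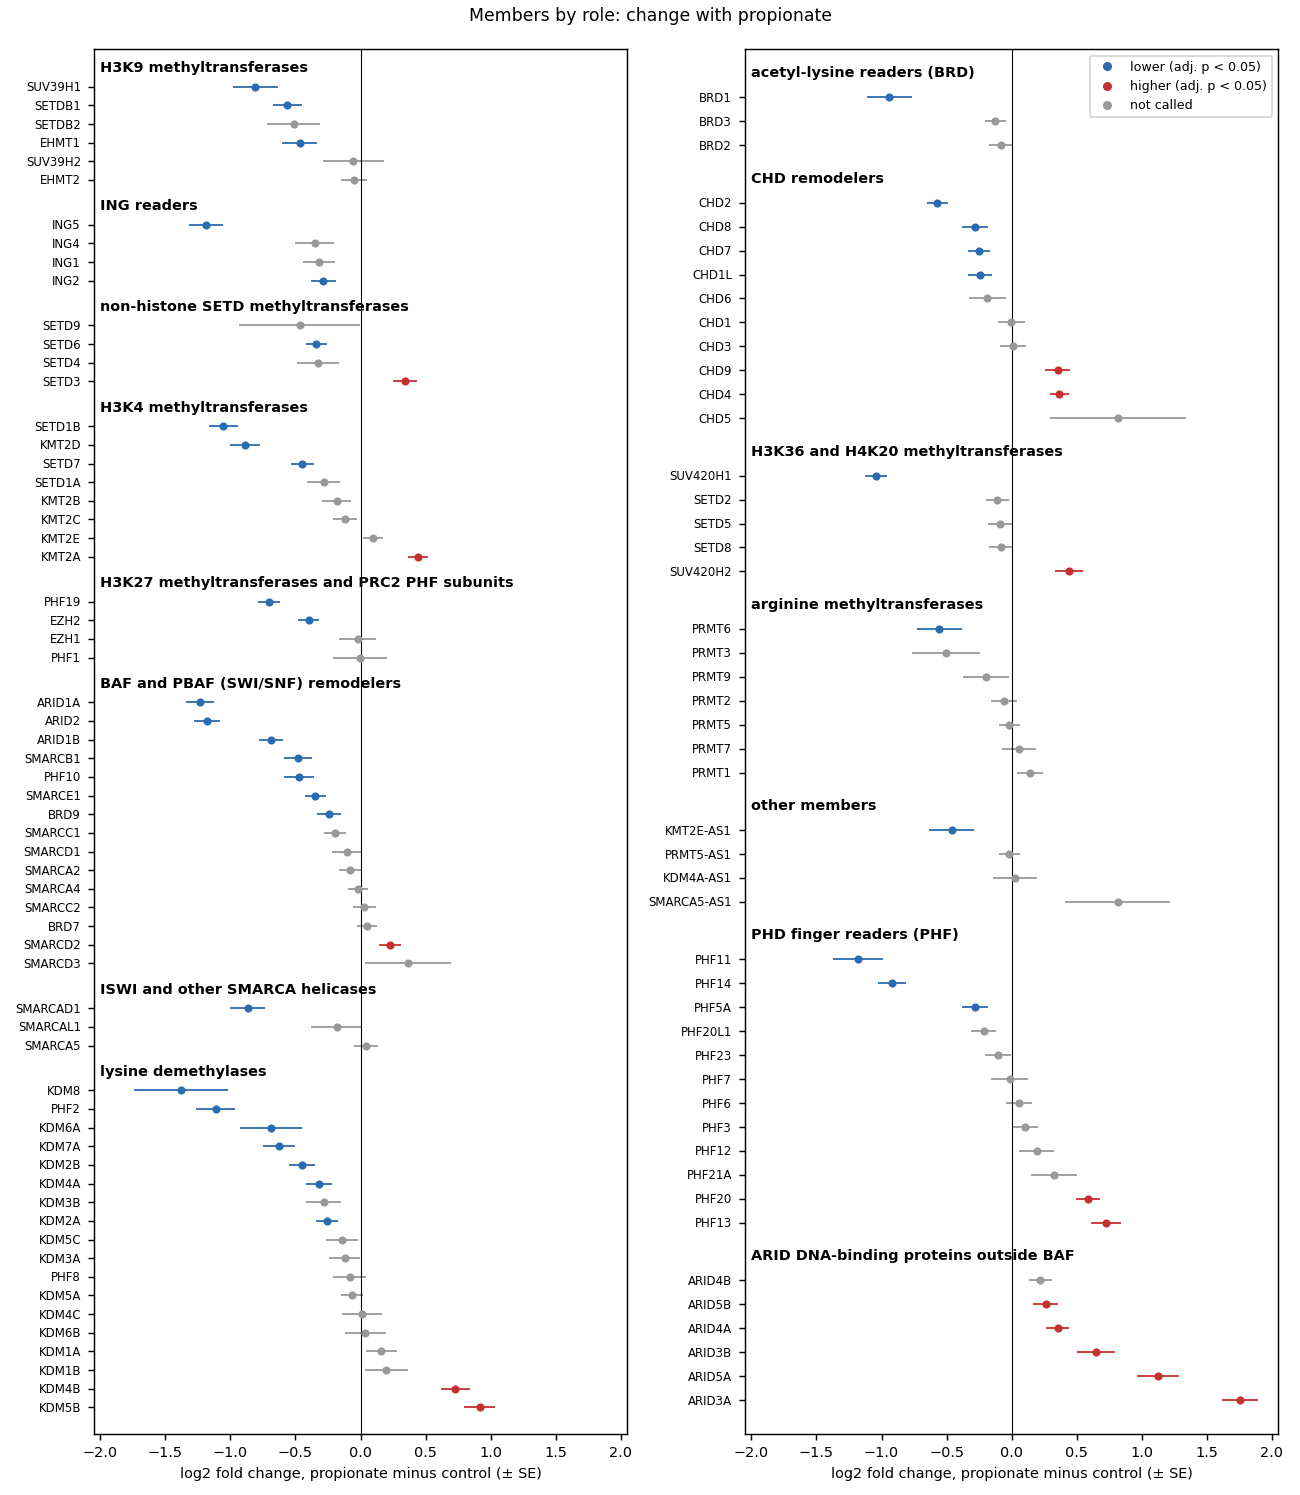
Log2 fold change of 109 of the members with its standard error (x axis), in role groups ordered by their median (y axis), with genes called lower in blue, higher in red and not called in grey. Groups with more than 1 fall and no rise are the H3K9 (3 of 6 lower) and H3K27 (2 of 4) methyltransferase groups and the ING readers (2 of 4). The BRD readers, arginine methyltransferases, non-BAF SMARCA helicases and antisense RNAs hold 1 fall each and no rise. All of these groups are small. The ARID proteins outside BAF show 5 rises and no fall. Of all tested genes 17.0% were lower and 17.2% higher.

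The 3 ARID subunits of the BAF and PBAF remodelers fell with propionate, as did SMARCB1, SMARCE1, PHF10 and BRD9, and the ATPases were not called. Of 15 BAF and PBAF members 7 fell (46.7%) and 1 rose (6.67%), with a median log2 fold change of -0.20. Of all tested genes 17.0% were lower and 17.2% higher. ARID1A, the large subunit that defines the canonical BAF complex and is often mutated in cancer, was at 88.1, 75.6 and 95.3 CPM in the controls and 35.99, 33.8 and 40.4 CPM with propionate. All 3 propionate libraries lay far below the controls, a fall of 2.35-fold (log2 fold change -1.23, SE 0.106, adjusted p = 8.35e-08). ARID2, which takes the same place in PBAF, went from 60.9, 61.6 and 65.8 CPM to 28.7, 25.1 and 29.4 CPM, 2.26-fold lower (adjusted p = 8.38e-08). ARID1B, the alternative to ARID1A in BAF, fell 1.61-fold, from 81.2 ± 5.17 to 50.3 ± 1.496 CPM (mean ± SD, n = 3, adjusted p = 1.08e-05), without overlap between the groups. SMARCB1, the core subunit lost in rhabdoid tumors, fell 1.40-fold (adjusted p = 0.00175), and so did PHF10, a PBAF subunit (1.39-fold, adjusted p = 0.00433), and SMARCE1, from 288 ± 15.2 to 226 ± 15.3 CPM (adjusted p = 0.00261).

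The other BAF subunits were not called or passed narrowly. The ATPase genes SMARCA4 and SMARCA2, one of which powers each complex, were at 436 ± 8.98 and 429.9 ± 20.3 CPM and at 172 ± 12.5 and 162 ± 8.91 CPM, with overlapping libraries (adjusted p = 0.864 and 0.504). SMARCA4 was called lower after removal of the GC trend (log2 fold change -0.28, adjusted p = 0.00795). BRD7, a PBAF reader, was at 233 ± 9.45 and 240.2 ± 5.11 CPM, while BRD9, the reader of the non-canonical BAF complex, was 1.18-fold lower with overlapping libraries (adjusted p = 0.0423). That call was lost without control library 1 or 2 or propionate library 1 or 3 (adjusted p from 0.109 to 0.147) and with upper-quartile factors (adjusted p = 0.0686). The scaffold SMARCC1 missed the threshold (log2 fold change -0.20, adjusted p = 0.0876) and passed it in the fit with the replicate block (adjusted p = 0.00181), and its partner SMARCC2 was at 62.6 ± 1.62 and 63.9 ± 1.04 CPM. SMARCD2, one of 3 interchangeable subunits, was the member that rose, 1.17-fold (adjusted p = 0.0457), a call lost without any 1 library (adjusted p from 0.0553 to 0.163) and with no filter on low counts (adjusted p = 0.0686) and after removal of the GC trend (0.870). SMARCD1 was not called (adjusted p = 0.502), and SMARCD3 was at 7.35, 2.65 and 2.58 CPM in control and 5.74, 6.35 and 4.06 CPM with propionate. Control library 1 stands apart from its group for SMARCD3, and without it the log2 fold change was 1.04 (adjusted p = 0.0127).

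**Figure D3:**
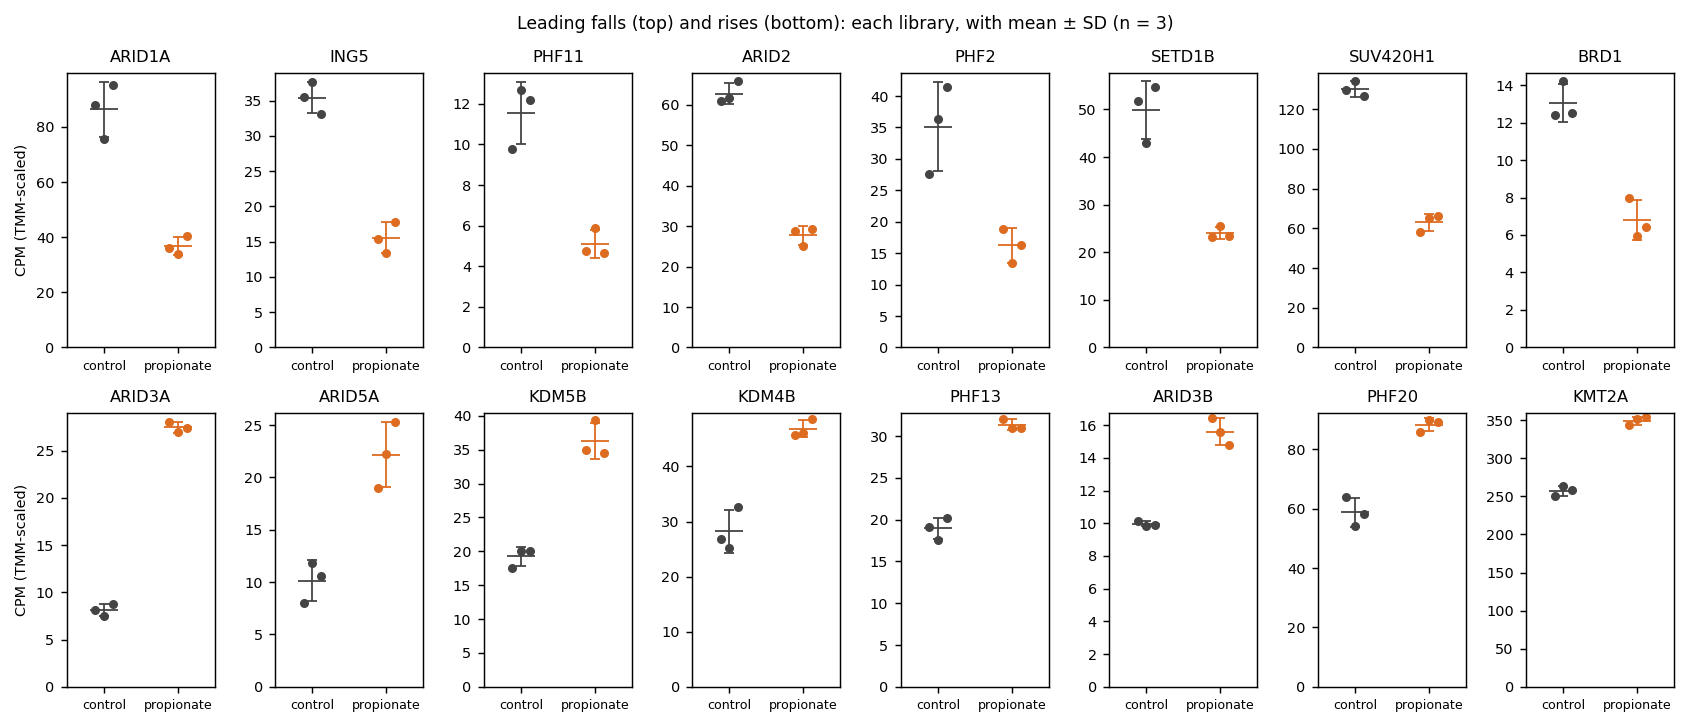
CPM in each library (y axis, starting at 0 in each panel) for the 8 largest falls (top) and 8 largest rises (bottom) among called members above 5 CPM, with points for libraries and bars for mean ± SD (n = 3). In each of the 16 panels the propionate libraries and the controls do not overlap, as for ARID1A (75.6 CPM or more in control, 40.4 CPM or less with propionate) and ARID3A (8.75 CPM or less and 26.9 CPM or more).

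Among the remodelers outside BAF, the falls were led by SMARCAD1, a helicase that restores heterochromatin after replication, at 29.03, 31.9 and 32.1 CPM in control and 19.6, 17.04 and 14.2 CPM with propionate. That is a 1.83-fold fall with the groups well apart (adjusted p = 4.46e-05). SMARCA5, the ISWI motor protein, was at 114 ± 10.8 and 117 ± 9.94 CPM (adjusted p = 0.763), and SMARCAL1, which remodels stalled replication forks, was not called either. Of 10 CHD helicases 4 fell (40%) and 2 rose (20%), beside 17.0% and 17.2% of all tested genes. CHD2, a remodeler that deposits histone H3.3 in active chromatin, fell 1.49-fold, from 206, 227 and 218 CPM to 136, 152 and 150.1 CPM (adjusted p = 2.50e-05). Its close relative CHD1 was at 57.7 ± 8.57 and 57.6 ± 1.93 CPM (adjusted p = 0.991). CHD4, the main ATPase of the NuRD complex that joins remodeling to histone deacetylation, rose 1.29-fold, with 396, 396 and 396 CPM in the controls and 487, 529 and 515 CPM with propionate (adjusted p = 0.000834). The controls were nearly equal for CHD4, and every propionate library lay above them.

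CHD9 rose 1.28-fold (adjusted p = 0.00774), and CHD8, CHD7 and CHD1L fell by smaller amounts. CHD8, a gene tied to autism that represses WNT targets, was 1.22-fold lower (adjusted p = 0.0410), with the call lost without control library 2 or propionate library 1, 2 or 3 (adjusted p from 0.0541 to 0.195) and with library totals only, upper-quartile factors or DESeq2 (adjusted p from 0.0531 to 0.0620). CHD7, the gene of CHARGE syndrome, was 1.19-fold lower (adjusted p = 0.0275), with the call lost without control library 2 or propionate library 1 (adjusted p from 0.0830 to 0.152). CHD1L, a remodeler that responds to DNA damage, passed narrowly (adjusted p = 0.0459), kept its call in 5 of 16 alternative settings and lost it without control library 1, 2 or 3 or propionate library 1 or 2 (adjusted p from 0.0639 to 0.148) and with relative log expression factors, library totals only, upper-quartile factors, DESeq2 or no filter on low counts (adjusted p from 0.0504 to 0.0705), among others. CHD3, the other common NuRD ATPase, was at 73.4 ± 9.38 and 73.9 ± 2.45 CPM (adjusted p = 0.947). CHD6 varied between libraries of a group (51.3, 70.9 and 72.8 CPM and 43.4, 66.1 and 61.9 CPM) and was called lower with the replicate block (adjusted p = 0.0344) and not without it (0.328). CHD5 was scarce in both groups, and without control library 1, which held most of its control reads, its log2 fold change was 1.77 (adjusted p = 0.0353) against 0.82 (adjusted p = 0.243) with all libraries.

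Of the 8 genes grouped here with the H3K4 methyltransferases 3 fell (37.5%) and 1 rose (12.5%), beside 17.0% and 17.2% of all tested genes. SETD1B, a catalytic subunit of the SET1 COMPASS complex at promoters, was at 51.9, 42.96 and 54.7 CPM in the controls and 23.1, 25.5 and 23.4 CPM with propionate. The fall was 2.07-fold and left no overlap (adjusted p = 1.06e-06). Its paralog SETD1A was 1.22-fold lower and missed the threshold (adjusted p = 0.0895), which it passed with the replicate block (adjusted p = 0.0409) and after removal of the GC trend (log2 fold change -0.55, adjusted p = 0.00160, against -0.28). KMT2D, the main enhancer methyltransferase, fell 1.85-fold, from 33.8, 35.7 and 31.8 CPM to 18.6, 16.8 and 19.3 CPM (adjusted p = 1.02e-05), whereas its paralog KMT2C was at 119.6 ± 7.42 and 110.0 ± 10.6 CPM (adjusted p = 0.329). KMT2A, the MLL gene rearranged in leukemia, rose 1.36-fold, from 250.1, 263 and 258 CPM to 343, 351 and 354 CPM (adjusted p = 0.000149). KMT2B, its paralog, was not called (log2 fold change -0.18, adjusted p = 0.224), but was lower with the GC trend removed (log2 fold change -0.47, adjusted p = 0.00158). SETD7, which mono-methylates H3K4 and several non-histone proteins, fell 1.36-fold (adjusted p = 0.000486), and KMT2E, a PHD-finger relative of KMT2A, was not called (adjusted p = 0.380).

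The methyltransferases of silencing marks held falls and no rise, apart from one H4K20 enzyme. Of all tested genes 17.0% were lower and 17.2% higher, and in groups this small an absence of rises carries little weight. Among 6 H3K9 enzymes 3 fell: SUV39H1, which trimethylates H3K9 in constitutive heterochromatin, SETDB1, which works with TRIM28 at retroelements, and EHMT1 (GLP), which dimethylates H3K9 in euchromatin. SUV39H1 was at 13.3, 13.8 and 11.001 CPM in control and 7.68, 6.35 and 7.70 CPM with propionate, 1.75-fold lower (adjusted p = 0.00125). SETDB1 fell 1.48-fold (adjusted p = 0.000684), and EHMT1 fell 1.38-fold (adjusted p = 0.00998), a call lost without control library 3 or propionate library 2 (adjusted p from 0.0541 to 0.0660). EHMT2 (G9a), the partner of EHMT1, was at 56.96 ± 5.02 and 55.1 ± 3.49 CPM (adjusted p = 0.749), but it was called lower after removal of the GC trend (log2 fold change -0.29, adjusted p = 0.0240). SUV39H2 was not called (adjusted p = 0.885), and SETDB2 missed the threshold (adjusted p = 0.0569) and passed with the replicate block (0.0237).

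EZH2, the H3K27 methyltransferase of Polycomb repressive complex 2 in dividing cells, fell 1.32-fold, from 215, 236 and 219 CPM to 167, 177 and 164 CPM (adjusted p = 0.000689). PHF19, a Polycomb-like accessory subunit of the same complex, fell 1.63-fold, from 95.7, 96.4 and 91.8 CPM to 59.6, 59.8 and 54.8 CPM (adjusted p = 5.20e-06). For both genes each propionate library was below every control. Their paralogs were near their control levels: EZH1, the enzyme of resting cells, was at 14.1 ± 1.30 and 13.9 ± 0.378 CPM (adjusted p = 0.925), and PHF1 at 5.75 ± 0.437 and 5.73 ± 0.617 CPM (adjusted p = 0.989).

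For H4K20, SUV420H1 (KMT5B) and SUV420H2 (KMT5C), which both add the second and further methyl groups, were called in opposite directions. SUV420H1 was at 129.7, 134 and 127 CPM in the controls and 58.3, 65.1 and 66.1 CPM with propionate, 2.06-fold lower (SE 0.0869 on the log2 scale, adjusted p = 5.18e-08). SUV420H2 was at 30.6, 32.7 and 33.6 CPM and 39.4, 43.7 and 48.2 CPM, 1.35-fold higher (adjusted p = 0.00360). Neither gene's groups overlapped. The rise of SUV420H2 was not called with the GC trend removed (log2 fold change 0.10, adjusted p = 0.509), while SUV420H1 was called lower in all 16 alternative settings. SETD8 (KMT5A), which adds the first methyl group, was at 87.9 ± 1.29 and 82.8 ± 8.65 CPM (adjusted p = 0.511). The H3K36 gene SETD2 and SETD5, grouped with it here, were not called (adjusted p = 0.361 and 0.479).

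Of 4 SETD enzymes with targets other than histones 1 rose and 1 fell (25.0% each), where 17.2% of all tested genes were higher and 17.0% lower. SETD3, an actin histidine methyltransferase, rose 1.26-fold (adjusted p = 0.00712), and SETD6, a methyltransferase of the NF-κB subunit RELA, fell 1.27-fold (adjusted p = 0.00325). SETD6 shares exon sequence on the opposite strand with CNOT1, which also fell (log2 fold change -0.30, adjusted p = 0.00632). With no strand setting stated for the counts, reads from the shared stretch cannot be assigned, and how many reads fell there was not measured. SETD4 and SETD9 were not called. Among 7 arginine methyltransferases 1 was lower (14.3%) and none higher, a share of falls near the 17.0% of all tested genes. PRMT6, which methylates H3 at arginine 2 and so opposes H3K4 methylation, fell 1.47-fold, from 16.4, 12.6 and 13.001 CPM to 11.1, 9.65 and 7.70 CPM (adjusted p = 0.0182). Its call was lost without control library 1 or propionate library 3 (adjusted p from 0.0862 to 0.0977). PRMT1, the main enzyme of asymmetric dimethylation, was at 311 ± 43.6 and 342 ± 35.98 CPM, not called (adjusted p = 0.313) except with the replicate block (0.0213). PRMT5, the main enzyme of symmetric dimethylation, was at 115 ± 6.94 and 114 ± 2.66 CPM (adjusted p = 0.892). PRMT2, PRMT3, PRMT7 and PRMT9 had adjusted p between 0.143 and 0.768.

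Lysine demethylases fell more often than they rose, with 7 falls (38.9%) and 2 rises (11.1%) among 18. Of all tested genes 17.0% were lower and 17.2% higher. PHF2, which removes H3K9 methylation, was at 27.5, 36.4 and 41.5 CPM in control and 18.9, 13.5 and 16.2 CPM with propionate, 2.16-fold lower without overlap (adjusted p = 1.55e-05). KDM7A, of the same subfamily, fell 1.55-fold (adjusted p = 0.000562), whereas the third relative, PHF8, was not called (adjusted p = 0.661). KDM8, a JmjC oxygenase, had the largest fold change of all falls (2.60-fold, adjusted p = 0.00580) but was scarce, at 3.498, 4.02 and 2.83 CPM in control and 1.55, 0.723 and 1.69 CPM with propionate. KDM2B, which recruits a Polycomb complex to CpG islands, fell 1.37-fold (adjusted p = 0.00209), and its paralog KDM2A fell 1.19-fold (adjusted p = 0.0255), a call lost without control library 2 or propionate library 2 or 3 (adjusted p from 0.0549 to 0.131). KDM6A (UTX), an H3K27 demethylase, fell from 6.91, 7.45 and 5.25 CPM to 4.58, 4.501 and 3.05 CPM (adjusted p = 0.0319), a call lost without control library 1 or 2 or propionate library 3 (adjusted p from 0.0797 to 0.129) and after removal of the GC trend (0.0554). KDM6B (JMJD3), its inducible paralog, was at 14.7 ± 2.81 and 15.1 ± 1.16 CPM (adjusted p = 0.885).

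KDM5B and KDM4B were the demethylases that rose. KDM5B, which erases H3K4 trimethylation, was at 17.6, 20.02 and 20.1 CPM in control and 34.98, 39.4 and 34.4 CPM with propionate, 1.89-fold higher (SE 0.116 on the log2 scale, adjusted p = 7.18e-06). Its paralogs KDM5A (139.9 ± 5.14 and 134 ± 7.82 CPM, adjusted p = 0.584) and KDM5C (adjusted p = 0.391) were not called. KDM4B, an H3K9 and H3K36 demethylase and known target gene of hypoxia-inducible factor, was at 26.8, 25.2 and 32.6 CPM and 45.8, 46.1 and 48.6 CPM, 1.66-fold higher (adjusted p = 5.24e-05). For both risers every propionate library was above every control. KDM4A fell 1.25-fold (adjusted p = 0.0199), a call lost without control library 2 or 3 or propionate library 1 (adjusted p from 0.0504 to 0.117), and KDM4C was at 13.7 ± 1.89 and 13.8 ± 1.25 CPM (adjusted p = 0.969). KDM3A, another known hypoxia-inducible target, was not called (29.5, 30.2 and 35.4 CPM and 29.2, 25.9 and 32.4 CPM, adjusted p = 0.469), and neither were KDM3B, KDM1A (LSD1) or KDM1B (adjusted p = 0.114, 0.314 and 0.386).

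Among the bromodomain readers outside BAF, BRD2 and BRD3, which bind acetylated histones and couple them to transcription, were not called (adjusted p = 0.542 and 0.254). BRD2 was at 184, 217 and 193 CPM in the controls and 168, 207 and 188 CPM with propionate, with the groups overlapping. In the fit with both the GC trend removed and the replicate block, both were called lower by small amounts (log2 fold change -0.21 and -0.19, adjusted p = 0.00261 and 0.00683). They were among 18 members called in that fit and not in the main one. Of these, ARID4B, KMT2E, PHF3 and SMARCA5 were higher and the others lower. BRD1, a scaffold of the HBO1 (KAT7) acetyltransferase complexes, fell 1.92-fold, from 12.4, 14.2 and 12.5 CPM to 7.99, 5.95 and 6.43 CPM (adjusted p = 0.000355).

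ING proteins bind trimethylated H3K4 and anchor acetyltransferase or deacetylase complexes there, and all 4 members had values below control. ING5, a subunit of HBO1 and MOZ acetyltransferase complexes like BRD1, was at 35.5, 37.7 and 33.2 CPM in control and 15.4, 13.4 and 17.9 CPM with propionate, 2.28-fold lower (adjusted p = 9.92e-07). Its paralog ING4, of the HBO1 complex, was 1.28-fold lower and missed the threshold (adjusted p = 0.0751, 0.0373 with the replicate block and 0.0499 after removal of the GC trend). ING2, of the SIN3 deacetylase complex, fell 1.22-fold (adjusted p = 0.0255), a call lost without control library 1 or 2 or propionate library 1, 2 or 3 (adjusted p from 0.0530 to 0.0932). ING1, also of the SIN3 complex, missed the threshold (log2 fold change -0.32, adjusted p = 0.0522) and passed with the replicate block (0.0169). In each of the 4 genes the propionate libraries lay below all controls, as they did in 22.7% of all tested genes.

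Of the 12 other PHD finger genes 3 fell (25.0%) and 2 rose (16.7%), near the 17.0% and 17.2% of all tested genes. PHF14, a nucleosome-binding reader, fell 1.89-fold, from 96.3, 110.3 and 123 CPM to 50.1, 64.1 and 60.6 CPM (adjusted p = 2.74e-06). PHF11, a gene first linked to asthma and IgE levels, fell 2.27-fold at low levels, 9.79, 12.67 and 12.2 CPM against 4.73, 5.87 and 4.65 CPM (adjusted p = 9.09e-05). PHF5A, a small splicing factor of the SF3b complex, fell 1.21-fold (adjusted p = 0.0316), a call lost without control library 1, 2 or 3 or propionate library 2 or 3 (adjusted p from 0.0584 to 0.121) and with upper-quartile factors (adjusted p = 0.0510). PHF13, a reader of trimethylated H3K4, was at 19.2, 17.6 and 20.2 CPM in control and 32.1, 31.02 and 30.97 CPM with propionate, 1.65-fold higher (adjusted p = 7.95e-05). PHF20, a methyl-lysine reader of the MOF acetyltransferase (NSL) complex, rose 1.505-fold, from 64.01, 54.1 and 58.1 CPM to 85.9, 90.02 and 89.2 CPM (adjusted p = 5.84e-05). Its paralog PHF20L1 was 1.16-fold lower, not called without the replicate block (adjusted p = 0.0898) and called with it (0.0163). PHF3, PHF6, PHF7, PHF12, PHF21A and PHF23 were not called, with adjusted p between 0.161 and 0.946.

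ARID proteins outside BAF carry the same DNA-binding domain as ARID1A and ARID2 without being subunits of the remodeler. Of their 6 genes 5 rose (83.3%) and none fell, beside 17.2% and 17.0% of all tested genes. ARID3A, a transcription factor of the E2F and B-cell programs, was at 8.13, 7.45 and 8.75 CPM in control and 28.003, 26.9 and 27.4 CPM with propionate. This 3.38-fold rise was the largest of all members (log2 fold change 1.76, SE 0.138, adjusted p = 2.54e-08), and its paralog ARID3B rose 1.57-fold, from 10.1, 9.84 and 9.92 CPM to 16.4, 15.6 and 14.8 CPM (adjusted p = 0.00209). ARID5A, an RNA-binding protein that stabilizes inflammatory mRNAs, rose 2.18-fold, from 8.05, 11.8 and 10.6 CPM to 19.005, 22.3 and 25.3 CPM (adjusted p = 2.77e-05). ARID5B, a partner of the demethylase PHF2, rose 1.20-fold (adjusted p = 0.0375), a call lost without control library 1 or 2 or propionate library 1 or 3 (adjusted p from 0.0549 to 0.200). ARID4A, a subunit of SIN3 deacetylase complexes, rose 1.28-fold (adjusted p = 0.00389), and ARID4B, of the same complexes, was 1.17-fold higher and just missed the threshold (adjusted p = 0.0521, 0.00521 with the replicate block, 0.00540 after removal of the GC trend, and from 0.0313 to 0.0479 with 3 other scalings). In all 6 genes every propionate library was above every control, as was the case for 22.4% of all tested genes.

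The antisense RNAs among the members run against KDM4A, KMT2E, PRMT5 and SMARCA5. KMT2E-AS1 was 1.38-fold lower (adjusted p = 0.0446), a call lost without control library 1, 2 or 3 or propionate library 1 or 3 (adjusted p from 0.0704 to 0.156) and with library totals only, upper-quartile factors, DESeq2 or no filter on low counts (adjusted p from 0.0515 to 0.0685), while KMT2E itself was not called. KDM4A-AS1 was at 13.6 ± 3.38 and 13.8 ± 0.815 CPM (adjusted p = 0.932), and SMARCA5-AS1 was scarce, at 1.05, 0.770 and 2.00 CPM and 2.79, 2.01 and 1.95 CPM, with a log2 fold change of 0.81 that passed only without control library 3 (1.30, adjusted p = 0.0423). PRMT5 and PRMT5-AS1 had 8282 and 8268 reads in all, nearly equal, and reads counted under both names cannot be told apart. Exons of 24 members overlap a gene on the opposite strand that has at least 60 reads in the tables, by GENCODE release 29. Beside SETD6 these include PHF10 with C6orf120 (log2 fold change -0.37, adjusted p = 0.00856) and BRD9 with TRIP13 (log2 fold change -0.33, adjusted p = 0.0261), in which both genes of the pair were called lower. For KDM2B with RNF34, KDM4A with KDM4A-AS1, SETDB1 with CERS2 and SMARCB1 with DERL3 the member was called lower and the opposite gene was not called. How many reads fell in these overlaps was not measured. Annotated pseudogene copies exist for 9 members, among them SMARCE1 with 7 and BRD7 with 5, and how the counting treated reads that match several copies is not given.

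Whether close relatives shifted against each other was read from their ratio. For 38 pairs of paralogs the log2 ratio of both genes was taken in each library, a quantity that does not depend on the scaling factor of the library. In 25 of the 38 pairs the ratios of the propionate libraries did not overlap those of the controls, and each of these had the smallest p that 3 against 3 libraries allow (exact two-sided permutation test, p = 0.1, Benjamini-Hochberg adjusted over the pairs 0.152), so no pair could pass 0.05. A ratio combines the changes of both genes, and the share of all gene pairs that do not overlap was not computed. Within a pair, both genes were called in opposite directions in 3 pairs, both in the same direction in 4, one alone in 23 and neither in 8. An effect called in one gene and not in the other is not by itself a difference between them, and the ratio is the measure of that difference.

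Without a GC correction the largest shift was that of SUV420H1 over SUV420H2, whose log2 ratio went from 2.01 ± 0.0880 in control to 0.53 ± 0.0665 with propionate (mean ± SD, n = 3, no overlap). KDM4A over KDM4B went from 1.29 ± 0.185 to 0.23 ± 0.160, and CHD8 over CHD9 from 0.49 ± 0.116 to -0.14 ± 0.140. These were the 3 pairs with opposite calls. With the GC trend removed the shift of the SUV420 pair, taken from the fitted log2 fold changes, was -1.05, behind KDM5B over KDM5C (1.24), PHF2 over PHF8 (-1.11) and ARID3A over ARID3B (1.08), and that of KDM4A over KDM4B was -0.83. ARID3A over ARID3B went from -0.30 ± 0.112 to 0.81 ± 0.0647, and KDM5B over KDM5C from -0.97 ± 0.186 to 0.08 ± 0.0485. KMT2C over KMT2D shifted by 0.77, SETD1A over SETD1B by 0.76 and ING4 over ING5 by 0.85, where the second gene of each pair fell and the first was not called. The ratio of the SWI/SNF ATPases, SMARCA2 over SMARCA4, was -1.35 ± 0.0866 and -1.40 ± 0.0323, and that of BRD2 over BRD3 was 0.38 ± 0.0844 and 0.43 ± 0.0549, both with overlap (exact permutation p = 0.400 and 0.500). The shift of SMARCA2 over SMARCA4 from the fitted values changed sign with the GC trend removed, from -0.06 to 0.27.

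**Figure D4:**
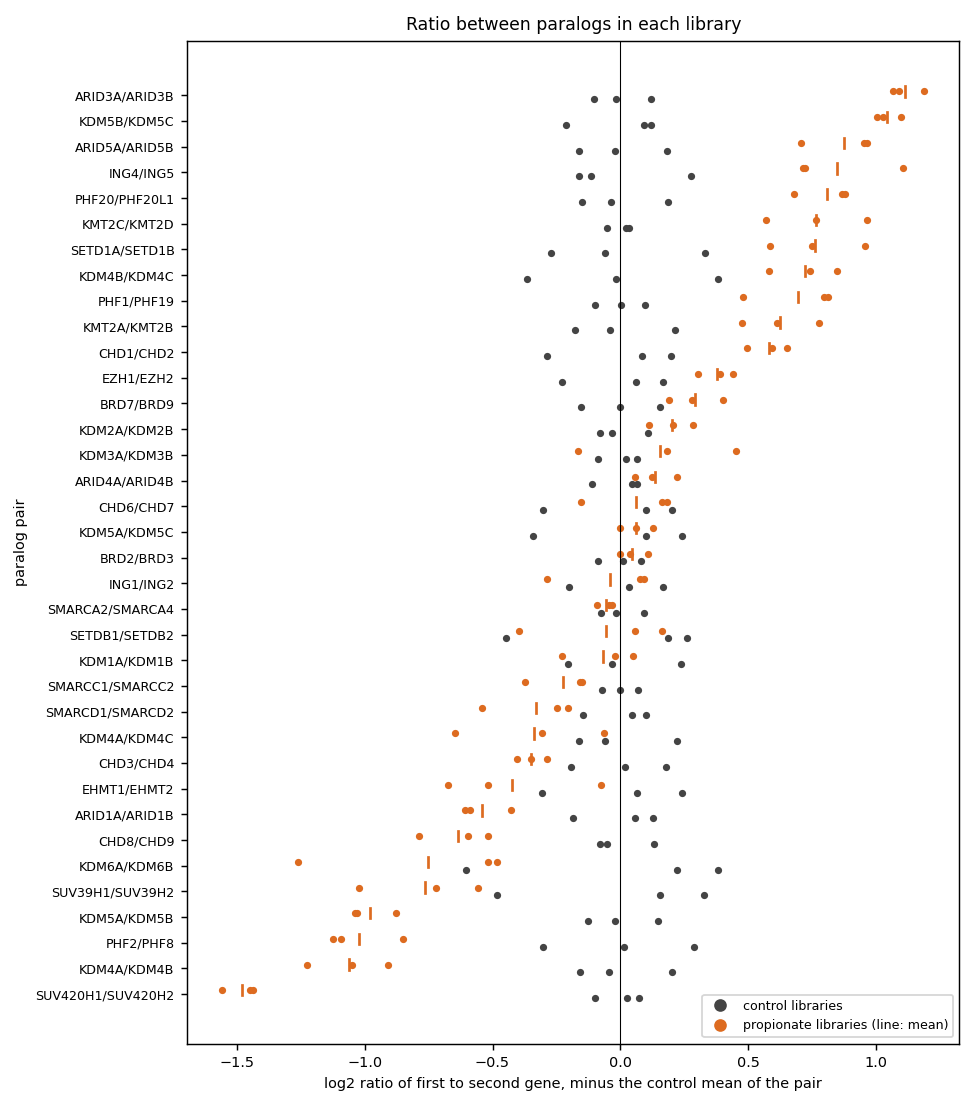
Log2 ratio of the first to the second gene of 36 of the 38 paralog pairs in every library, minus the control mean of the pair (x axis), with control libraries in grey, propionate libraries in orange and a line at their mean. ARID3A/ARID3B (1.12) and SUV420H1/SUV420H2 (-1.48), at the top and bottom, have propionate libraries clear of the controls, and SMARCA2/SMARCA4 (-0.06), in the middle, does not. Overlap does not follow the size of the shift alone: KDM6A/KDM6B (-0.75) overlaps and KDM2A/KDM2B (0.20) does not.

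The promoters of the SUV420 and KDM4 pairs are shown because these had the largest shifts of the 3 pairs called in opposite directions. Each is the strand of the gene from 250 bases before to 50 after its RefSeq start (GRCh38.p14), with capitals marking GC boxes (GGGCGG or its reverse complement CCGCCC) and CCAAT boxes (CCAAT or ATTGG), bound by SP/KLF factors and NF-Y. SUV420H1 lies at chr11:68213599-68213898 on the minus strand, SUV420H2 at chr19:55339626-55339925 on the plus strand, KDM4A at chr1:43649899-43650198 on the plus strand and KDM4B at chr19:4968863-4969162 on the plus strand.
SUV420H1: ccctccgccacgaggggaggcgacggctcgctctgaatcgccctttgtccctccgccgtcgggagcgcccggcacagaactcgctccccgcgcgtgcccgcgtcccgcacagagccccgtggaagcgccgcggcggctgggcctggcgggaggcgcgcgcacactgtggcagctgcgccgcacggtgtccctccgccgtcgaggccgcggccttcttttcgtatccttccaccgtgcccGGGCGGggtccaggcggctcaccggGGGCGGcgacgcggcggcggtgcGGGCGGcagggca
SUV420H2: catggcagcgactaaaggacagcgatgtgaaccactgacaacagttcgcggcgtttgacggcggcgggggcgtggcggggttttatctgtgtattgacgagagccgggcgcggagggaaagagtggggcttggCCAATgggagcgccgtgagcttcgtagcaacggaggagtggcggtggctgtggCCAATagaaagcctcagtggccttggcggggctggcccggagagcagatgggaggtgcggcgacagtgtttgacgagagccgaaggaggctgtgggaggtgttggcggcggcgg
KDM4A: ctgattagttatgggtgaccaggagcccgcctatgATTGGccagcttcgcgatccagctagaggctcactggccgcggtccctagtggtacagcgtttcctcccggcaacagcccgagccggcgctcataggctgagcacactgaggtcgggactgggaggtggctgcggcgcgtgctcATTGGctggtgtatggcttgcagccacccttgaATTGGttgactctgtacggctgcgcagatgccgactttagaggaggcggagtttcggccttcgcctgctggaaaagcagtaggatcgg
KDM4B: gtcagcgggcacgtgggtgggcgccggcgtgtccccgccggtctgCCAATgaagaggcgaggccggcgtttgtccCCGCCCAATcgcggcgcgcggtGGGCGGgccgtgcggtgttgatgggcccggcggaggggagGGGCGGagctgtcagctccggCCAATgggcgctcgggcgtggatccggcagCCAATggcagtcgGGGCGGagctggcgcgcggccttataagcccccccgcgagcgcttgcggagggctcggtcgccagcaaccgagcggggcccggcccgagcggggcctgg
The SUV420H1 window holds 3 GC boxes and no CCAAT box, and that of SUV420H2 the reverse, no GC box and 2 CCAAT boxes. KDM4A has no GC box and 3 CCAAT boxes, and KDM4B has 4 of each, with 1 of its CCAAT boxes sharing bases with a GC box. The fallen gene thus holds the GC boxes in one pair and lacks them in the other.

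Promoters were matched for 94 of the 110 members. A GC box on either strand was in 21 of 32 promoters of members that fell (65.6%), in 10 of 13 of members that rose (76.9%) and in 42 of 49 of members not called (85.7%), beside 69.2% of the promoters of all tested genes and 44.6% of all promoters in the table. CCAAT was in 34.4%, 46.2% and 22.4% of these member groups and in 37.2% of all tested genes (35.7% of all promoters). An ETS core (CCGGAAG, either strand) was in 6 of 32, 1 of 13 and 7 of 49, beside 19.3% of all tested genes and 10.7% of all promoters. A YY1 sequence (AAGATGGCG, either strand) was in none of the promoters of fallen or risen members and in 6 of 49 of those not called, beside 3.97% of all tested genes and 1.85% of all promoters. With so few promoters these shares are descriptions and bear on no factor.

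Member transcripts were long, with a median length of 5166.5 bases in the longest GENCODE coding transcript (or the longest of any kind) against 3242 for all tested genes, and it was 5196 for members that fell and 5891 for members that rose. Length and GC content refer to the whole reference transcript, and which part of it the reads covered was not examined. Transcript GC content separated called genes in the series as a whole: its median was 45.8% in all genes called lower and 55.7% in all called higher. In the members it was 50.3% for falls and 51.8% for rises, near the 50.5% of members not called. Across genes, Spearman's rho of log2 fold change with transcript GC content was 0.27 over 13144 tested genes and 0.10 over the 110 members, where genes share the libraries and are not independent. The tested genes were split into 5 bins of nearly equal size by GC content. In the bin from 52.2% to 58.5% GC, 11 of 25 members were lower (44.0%) where 14.8% of all its tested genes were, and in the bin with the highest GC 4 of 18 members were lower (22.2%) against 8.82%. In the bin from 41.2% to 46.1%, 4 of 20 members were lower, beside 21.8% of all its tested genes.

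**Figure D5:**
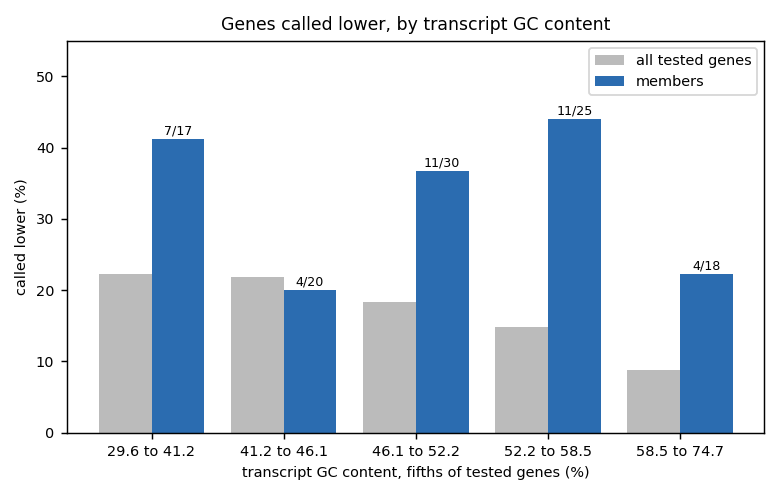
Share of genes called lower (y axis, percent) in 5 nearly equal bins of the tested genes by transcript GC content (x axis), for all tested genes in grey and for the members in blue with their counts. In all tested genes the share falls from 22.2% to 8.82% as GC content rises, and for the members it is above that share in 4 of the 5 bins.

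Other chromatin genes outside the symbol rule, some of them partners of the members and some from other families, were also lower more often than higher. Of 142 such genes tested 54 were lower (38.0%, against 17.0% of all tested genes) and 16 higher (11.3% against 17.2%), with a median log2 fold change of -0.18 against -0.01. These genes were not compared with tested genes of like read number or GC content, and their lists were chosen with earlier results of these data known. Of 13 further BAF and PBAF genes 4 fell and 1 rose: PBRM1, the PBAF polybromo subunit, fell from 89.9 ± 6.42 to 59.2 ± 5.52 CPM (log2 fold change -0.60, adjusted p = 7.63e-05), as did BCL7A (-0.84), and DPF3 rose from 0.625 ± 0.119 to 2.33 ± 0.512 CPM. Among 8 ISWI partners 4 fell, led by BPTF, the large reader subunit of NURF, from 221 ± 12.66 to 110.2 ± 7.72 CPM (adjusted p = 6.05e-08), and BAZ2B (log2 fold change -0.88). The 1 that rose was BAZ2A, of the nucleolar NoRC complex, from 113 ± 8.26 to 173 ± 15.9 CPM (adjusted p = 3.60e-05). For INO80 and SRCAP 4 of 11 fell, led by INO80D (log2 fold change -1.62, adjusted p = 1.59e-06) and INO80 (-0.50). The NuRD partners of CHD4 were divided, with GATAD2B (0.37) and GATAD2A (0.25) higher and MBD3 (-0.48) and CDK2AP1 (-0.32) lower among 10, also near the shares of all tested genes.

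Among 13 COMPASS partners 6 fell (46.2%) and 2 rose (15.4%), beside 17.0% and 17.2% of all tested genes. HCFC1, shared by SET1 and MLL complexes, went from 401 ± 28.6 to 257 ± 17.4 CPM (adjusted p = 9.45e-06) and PAGR1, of the KMT2C and KMT2D complexes, also fell (log2 fold change -0.60). MEN1 (menin), which tethers KMT2A to chromatin, also rose, from 93.2 ± 11.4 to 135 ± 11.4 CPM (adjusted p = 0.000296), and CXXC1, of the SET1 complexes, rose too (0.34). In the Polycomb list 5 of 25 rose and 5 fell, shares near those of all tested genes. Among the rises was CBX6, a reader of trimethylated H3K27, from 25.7 ± 2.71 to 66.7 ± 5.03 CPM (adjusted p = 2.54e-08), and the falls were led by BMI1 (-0.45) and PHC3 (-0.38). Of 9 H3K9 partners 4 fell and none rose, with ATF7IP, the cofactor of SETDB1, going from 50.5 ± 6.19 to 26.97 ± 3.77 CPM (adjusted p = 1.21e-05) and WIZ, of the EHMT1 and EHMT2 complex, lower too (log2 fold change -0.41).

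Methyltransferases outside the symbol rule held 7 falls (46.7%) and no rise among 15, beside 17.0% lower and 17.2% higher of all tested genes. The falls were led by the H3K36 enzymes NSD1, from 40.6 ± 1.34 to 24.8 ± 0.287 CPM (adjusted p = 2.93e-05), and WHSC1 (NSD2, -0.48, adjusted p = 0.000164). Of 8 demethylase partners and relatives 3 fell and 2 rose, with JMJD1C (-0.52) and MINA (-0.50) lower and RCOR2 (0.72) and JMJD6 (0.34) higher on the log2 scale. In the DNA methylation list, with 4 falls and 1 rise among 8, TET2, an enzyme that oxidizes methylcytosine, went from 33.1 ± 1.98 to 15.03 ± 0.550 CPM (adjusted p = 7.67e-07), TDG, which excises the oxidized bases, fell (log2 fold change -0.69), and the de novo methyltransferase DNMT3B rose (0.69, adjusted p = 0.00133). Among 22 other readers 11 fell and 2 rose, led by PHIP, from 197 ± 6.26 to 109.8 ± 4.85 CPM (adjusted p = 2.53e-07), and ZMYND11, a reader of H3.3 with methylated K36 (-0.80, adjusted p = 1.37e-06). The rises there were TCF19 (0.44) and the scarce L3MBTL1 (1.30).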

How the data were processed

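For every library the authors deposited 1 table of unnormalized read counts by gene symbol. Per the labels' protocols, 500 ng of total RNA entered a Lexogen QuantSeq kit, and the submitters' processing notes name Bowtie2, edgeR, hg19 and GRCh37. For the counting tool, annotation and strand setting, nothing is stated: not given in the sources used here. Repeated symbols were summed, which touched 3 members (BRD2 with 7 lines, EHMT2 with 7 and PHF1 with 2). Whether a read could be counted on several of these lines is not given, so the levels and ratios of these members carry that limit.

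Counts were fitted with edgeR 4.0.16 (R 4.3.3) by its quasi-likelihood test, two-sided, with TMM factors and filterByExpr, and p-values were adjusted over all 13605 tested genes. CPM values use the TMM-scaled totals. The fitting script was tested on simulated data. Paralog ratios were compared by exact permutation over libraries.

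The titles mark the libraries of both groups with no prime, 1 prime or 2 primes, read here as replicates 1 to 3, and state no shared day or batch. Deviations from the group means correlated at 0.244, 0.4 and 0.446 between libraries of the same number (9286 genes) and at most at 0.00906 otherwise. A gene's deviations cancel out within a group, so the low values follow in part from the high ones and are no separate evidence. The numbers were taken as pairing the libraries, and the blocked value stands beside a result where it changed the call. The main fit, the fits with 1 library left out and the permutation test did not use this pairing.

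Members and gene lists were chosen with earlier results of these data known. Named were up to 4 called members a role group and direction by smallest p, the 10 largest rises and falls above 5 CPM, the 6 members with the highest mean CPM, paralog pairs, members nearest the read limit, and up to 2 called partners a list and direction; members named otherwise were chosen after their values were seen. Alternatives were other scaling, limma-voom (limma 3.58.1), DESeq2 1.42.0, other thresholds and low-count filters, the replicate block, a GC spline and each library left out. Transcripts came from GENCODE release 29 and promoters from RefSeq (GRCh38.p14), and no coordinate was converted between builds. The values of 1 member and 1 partner gene are not reported here, though both are included in the counts.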

Additional observations from a re-analysis of the deposited data

How the results depend on the processing

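No call of a member changed direction in the alternatives run, though several members that were not called changed sign, and 25 of the 37 falls and 12 of the 15 rises passed the threshold in each of the 16 refits. Falls among the members numbered from 32 to 40 across other scalings, DESeq2, limma-voom, other filters and the GC trend removed, 26 at an adjusted p under 0.01 (13 rises), and 36 without the antisense RNAs, an alternative chosen after seeing the data. With 1 library left out, falls numbered from 28 to 33 and rises from 13 to 15, while in all tested genes falls numbered from 1864 to 1999 and rises from 1984 to 2080. With the replicate block, which takes same-numbered libraries as pairs, 44 members were lower and 17 higher (22.6% and 21.9% of all tested genes), and it changed the call of no member beyond the 9 whose blocked value is given above. No call was lost with the block, also not where the unpaired fit lost it without 1 library. Examples are BRD9, ARID5B, CHD1L and KMT2E-AS1 (adjusted p with the block = 0.00190, 0.00204, 0.00604 and 0.0221). With the GC trend removed and the replicate block together, 51 members were lower and 17 higher (25.8% and 18.7% of all tested genes), and all tested genes called lower rose from 2316 to 3512; at an adjusted p under 0.01 they were 1424 (fewer genes pass a stricter threshold). Leaving out 1 library also brought members over the threshold: ARID4B without propionate library 1, ING1 without control library 2 or propionate library 1, PHF20L1 without propionate library 2 and SETDB2 without control library 3, beside CHD5, SMARCD3 and SMARCA5-AS1 above. Of the 38 paralog pairs 24 did not overlap with 1 CPM added. The pair shifts with the GC trend removed were also an alternative chosen after seeing the data. Members near the lower read limit, such as CHD5 and SETD9, averaged under 1.5 CPM, where few reads limit the precision.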
